A study of Mus musculus with 2 samples.

Results

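The 6 genes described here encode proteins that shorten the life of messenger RNA: Zfp36, Zfp36l1 and Zfp36l2 of the Zfp36 family, Btg1 and Btg2 of the BTG family, and the endonuclease gene Zc3h12a (Regnase-1). They were chosen by name, from 31053 genes in the files, and their unique molecular identifiers (UMIs, each standing for 1 captured RNA molecule) were summed by library and cell class and compared with the UMIs of the immediate early gene Fos. The cells came from ear epidermis of wild-type (WT) female FVB/NJ mice, 8 weeks old, 7 days after an intradermal injection of isotype control antibody or of anti-Skint1 antibody. Skint1 is a keratinocyte surface protein needed for the development of dendritic epidermal T cells (DETCs), and the comparison asks what blocking it in adult skin does to these cells. After trypsin digestion, living cells with CD45 and without EpCAM or MHC class II on their surface were taken by flow sorting, and 1 single-cell library (10x 3' v3) was made per treatment, with no replicate library and no count of animals in the labels. Intervals therefore cover counting error only, no test between treatments was possible, and cells of 1 library are not replicates of a condition.

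Zfp36 family proteins bind AU-rich stretches in 3' untranslated regions (UTRs) through a pair of CCCH zinc fingers and bring in the CCR4-NOT complex, which removes the poly(A) tail, so that the message is decapped and degraded. BTG proteins touch the same deadenylase through CNOT7 and CNOT8 and speed up poly(A) removal more broadly, whereas Zc3h12a cuts stem-loops in messages such as those of cytokines. In T cells these factors are known as brakes on cytokine output and on exit from quiescence, and Zfp36 and Btg2 are themselves induced as early response genes.

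The genes lie on GRCm38 (GENCODE vM21) at chr7:28376784-28380253 for Zfp36, chr12:80107754-80113013 for Zfp36l1, chr17:84183931-84187947 for Zfp36l2, chr10:96617006-96622809 for Btg1, chr1:134075170-134079120 for Btg2 and chr4:125118423-125127840 for Zc3h12a. Btg1 is on the plus strand and the other 5 genes are on the minus strand. The principal transcripts of the Zfp36 and BTG genes have 2 exons each, and that of Zc3h12a has 6.

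The 3 Zfp36 family messages carry the motif that their own products bind. In DNA letters the motif is TATTTAT, searched on the sense strand of the longest principal 3' UTR, with the longer form TTATTTATT, which contains it, counted separately. Zfp36 holds 3 copies in a 3' UTR of 774 bases, and 1.30% of 3010 genes with a 3' UTR within 25% of that length hold as many. Zfp36l1 and Zfp36l2 also hold 3 copies each, in 1835 and 1822 bases, as do 3.93% and 3.86% of genes of like length. Each of the 3 has 1 copy of the longer form. Btg2 has 1 copy in 2199 bases, where 43.5% of genes of like length have at least 1. Btg1, with the longest 3' UTR of the 6 (4166 bases), and Zc3h12a (856 bases) have none, where 61.7% and 20.9% of genes of like length have at least 1. The sites are shown because the family's messages and those of its known targets share them, with the motif in capitals and the strand of the gene.
Zfp36, chr7:28376958-28376987, minus strand: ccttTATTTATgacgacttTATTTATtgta
Zfp36, chr7:28376926-28376954, minus strand: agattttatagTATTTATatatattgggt
Zfp36l1, chr12:80108422-80108450, minus strand: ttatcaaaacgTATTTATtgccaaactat
Zfp36l1, chr12:80108381-80108409, minus strand: aattttgttcaTATTTATcgggatgacaa
Zfp36l1, chr12:80108167-80108195, minus strand: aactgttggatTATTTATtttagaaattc
Zfp36l2, chr17:84184914-84184942, minus strand: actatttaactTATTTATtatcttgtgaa
Zfp36l2, chr17:84184866-84184894, minus strand: tgtccatactgTATTTATcgagtatgatg
Zfp36l2, chr17:84184680-84184708, minus strand: attgtatgtaaTATTTATttcattaattt
Btg2, chr1:134077249-134077277, minus strand: aaatgaagagcTATTTATacatgtttttt

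Promoters are shown because the members varied together with Fos. RefSeq windows (GRCm38.p6) were found for 5 of the 6 members, and the 250 bases before the start site were searched on both strands for the cyclic AMP response element (CRE, TGACGTCA), its half-site TGACG (which lies within it), the AP-1 motif TGANTCA, the EGR motif GCGGGGGCG, and, by their names, the NF-kB motif and the CArG box bound by serum response factor. Of 32851 windows in the table, 1.55% hold a CRE, 17.8% a half-site, 6.75% an AP-1 motif, 2.57% an EGR motif, 1.21% the NF-kB motif and 1.47% a CArG box. These shares were not matched for base composition. G and C made up 73.2% of the Btg2 window, 65.2% of Btg1, 64.8% of Zfp36, 66.4% of Zc3h12a and 48.4% of Zfp36l1, against a median of 52.4%. Btg2 holds a full CRE 166 bases before its start, Btg1 holds 2 half-sites on the opposite strand, and Fos holds 2 half-sites. Zfp36 holds an EGR motif and a CArG box, and Zfp36l1 an AP-1 motif. No match was found in the Zc3h12a window. The Zfp36 window lies within the first exon of the principal GENCODE transcript, so only its matches are printed. Capitals mark the matches.
Btg2, chr1:134079156-134079405, minus strand: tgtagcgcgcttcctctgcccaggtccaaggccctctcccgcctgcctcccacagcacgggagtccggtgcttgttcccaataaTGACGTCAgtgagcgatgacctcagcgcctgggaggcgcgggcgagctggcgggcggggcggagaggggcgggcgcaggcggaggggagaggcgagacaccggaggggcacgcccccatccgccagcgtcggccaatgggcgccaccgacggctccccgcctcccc
Btg1, chr10:96616751-96617000, plus strand: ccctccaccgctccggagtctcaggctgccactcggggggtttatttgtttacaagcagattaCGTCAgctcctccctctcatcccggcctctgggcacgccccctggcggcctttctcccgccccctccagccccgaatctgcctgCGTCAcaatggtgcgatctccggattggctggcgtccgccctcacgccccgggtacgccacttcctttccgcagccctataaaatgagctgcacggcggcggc
Zfp36 EGR motif, chr7:28379315-28379343, minus strand: gagctacgccGCGGGGGCGcgtcccggaa
Zfp36 CArG box, chr7:28379267-28379296, minus strand: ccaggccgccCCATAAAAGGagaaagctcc

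Barcodes with 500 to 2500 detected genes and at most 12% mitochondrial UMIs numbered 4242 in the isotype library and 5961 in the anti-Skint1 library. DETCs (3 or more Trdc UMIs, 3 or more of Cd3d, Cd3e and Cd3g together, and none of Trac, Cd4, Cd8a or Cd8b1) were 3544 and 4945 of them, with 14659876 and 18706191 UMIs. Alpha-beta T cells (a Trac UMI and no Trdv4) were 197 and 213, and they too held transcripts of other T cells: Trdc was at 299.7 and 546 CPM beside Trac at 584 and 499, and Il17a, known from dermal gamma-delta T cells, at 64.9 and 126 CPM. The ILC rule (3 or more UMIs of Il7r, Rora and Gata3 together, at most 2 of Cd3d, Cd3e and Cd3g together, and no Trdv4) took 82 and 139 barcodes, of which 9 and 14 also met the alpha-beta T rule. The libraries shared 5 cell barcodes. Of the 6 DETC markers the rule itself used Trdc, Cd3d and Cd3e, and the 3 it did not use, Trdv4, Tcrg-V5 and Ptprc, were also detected in DETCs of both libraries. A Trdv4 UMI was held by 3133 of the 3544 isotype and 4146 of the 4945 anti-Skint1 DETCs. The ILC barcodes went partly against their label: the 3 keratinocyte markers Krt5, Krt10 and Krt14 summed to 428 and 3453 UMIs per 1000000 (all 108 isotype Krt14 UMIs in 1 barcode) against 15.6 and 24.6 in DETCs, and the 5 Langerhans and myeloid markers summed to 1042 and 1613 against 10.3 and 9.19. Of the 7 ILC markers, Il1rl1, Ncr1 and Klrb1c were at 0 in the isotype ILC barcodes and at 3, 1 and 3 UMIs in the anti-Skint1 ones, while Kit, which the rule did not use, was at 83.6 and 111 CPM against 15.4 and 8.55 in DETCs. They are therefore called ILC-rule barcodes below.

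DETCs contained all 6 factors at levels far apart from each other, and the order was the same in both libraries. Levels are given as UMIs per 1000000 UMIs of the class (CPM). Since 1 molecule gives 1 count from its 3' end, levels of different genes were compared without regard to length. Btg1 was highest, at 2607 CPM (95% exact Poisson interval 2581 to 2633) in isotype DETCs and 2494 (2471 to 2517) in anti-Skint1 DETCs. Btg2 followed at 1683 (1662 to 1704) and 1777 (1758 to 1796). The Zfp36 family lay lower, with Zfp36l2 at 470 (459 to 481) and 427 (418 to 437), Zfp36 at 337 (327 to 346) and 366 (357 to 375), and Zfp36l1 at 242 (235 to 251) and 222 (215 to 229). Zc3h12a was near the limit of these libraries, at 45.6 (42.2 to 49.2) and 44.6 (41.6 to 47.7). No neighbours in this order had overlapping intervals in either library. Together the 6 genes took 0.538% and 0.533% of all DETC UMIs, against 0.438% and 0.451% in alpha-beta T cells and 0.295% and 0.27% in ILC-rule barcodes.

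**Figure D1:**
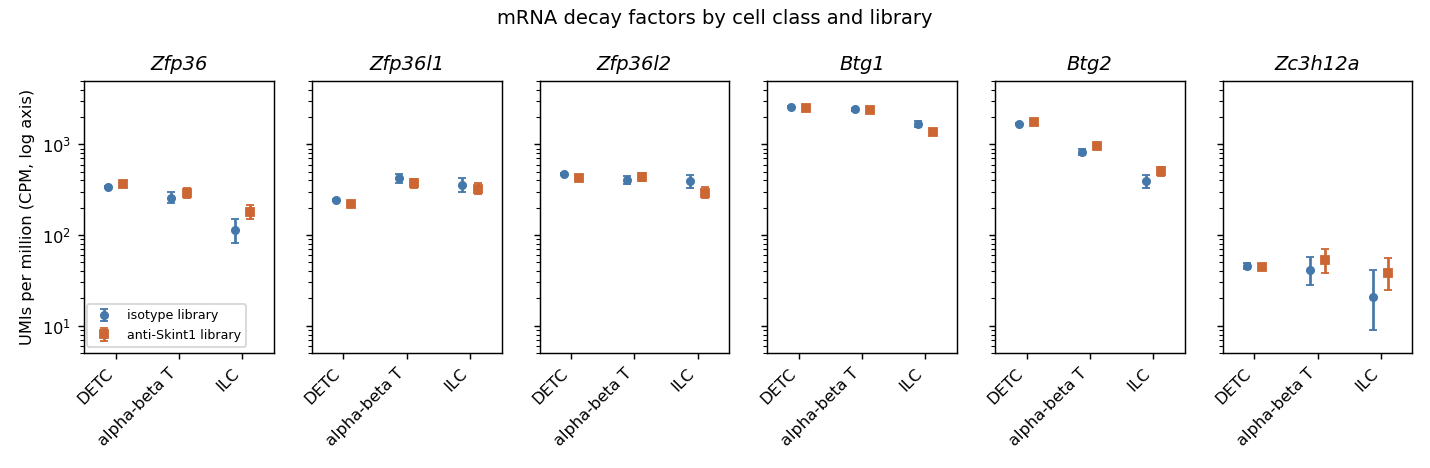
CPM (log axis) of each decay factor in DETCs, alpha-beta T cells and ILC-rule barcodes, with circles for the isotype library, squares for the anti-Skint1 library and bars for 95% exact Poisson intervals (counting error only). Btg1 and Btg2 sit above 300 CPM in every class, Zc3h12a sits below 60, and Zfp36l1 is the member with lower points in DETCs than in both other classes.

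To see how the UMIs were spread over cells, 2000 UMIs were drawn from each DETC, which left out 134 isotype and 202 anti-Skint1 cells that were shallower and kept 3410 isotype and 4743 anti-Skint1 cells. Btg1 was found in nearly all of them, with 9.06% and 8.83% of cells at 0 and a median of 4 UMIs in both libraries. Btg2 was at 0 in 15.2% and 14.0% of cells, with a median of 3. Zfp36 was at 0 in 60.9% and 58.9%, yet 7.30% and 8.05% of cells held 3 or more, and the highest held 10 and 11. Zfp36l1 was at 0 in 66.9% and 68.4%, and Zfp36l2 in 45.7% and 49.5%. Zc3h12a was at 0 in 91.7% and 91.9%, and 3 was its highest count in a cell in both libraries. Most cells held several factors at a time: 3 was the commonest number of members with a UMI (33.6% and 32.7% of cells), 1.32% and 1.31% held none, and 0.850% and 0.801% held all 6.

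The BTG genes and the Zfp36 family varied between cells more than counting alone gives. The Fano factor (variance over mean, 1 for Poisson counts) was 3.78 and 3.8 for Btg1, 2.61 and 2.93 for Btg2, and 1.87 and 1.84 for Zfp36, against 9.02 and 9.69 for Fos. In the isotype library, 99.2%, 98.3% and 96.6% of 2890 genes had a lower value than these members. Zfp36l2 (1.51 and 1.57) and Zfp36l1 (1.42 and 1.5) had lower Fano factors, with 93.9% and 92.2% of genes lower in the isotype library. Zc3h12a, at 1.07 in both libraries, was close to the Poisson value at its low count. At equal relative variation the Fano factor grows with the mean, and means ran from 5.37 and 5.15 UMIs (Btg1) to 0.0900 and 0.0877 (Zc3h12a). Genes were not matched for mean, so the order of these values does not rank their relative variation.

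**Figure D2:**
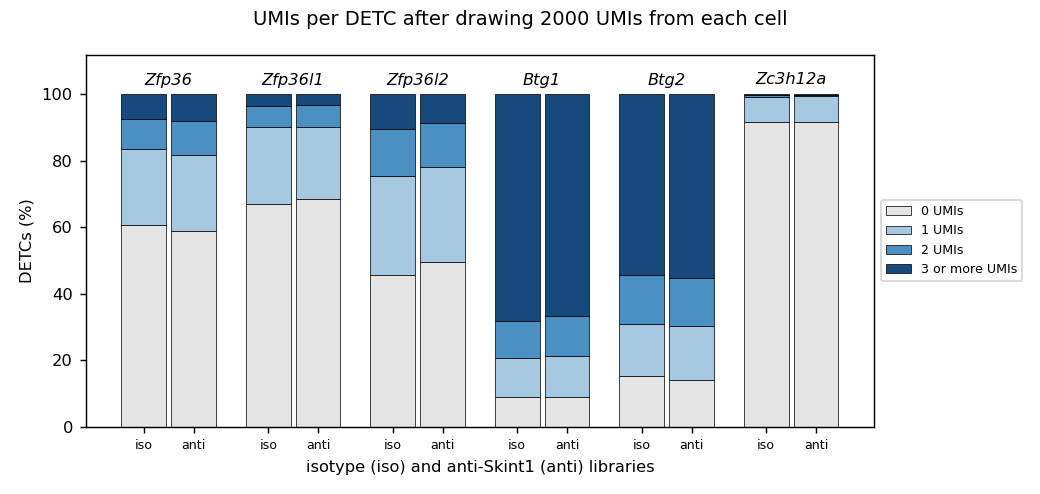
Share of DETCs (percent, y axis) with 0, 1, 2 and 3 or more UMIs of each member after 2000 UMIs were drawn from each cell, with an isotype and an anti-Skint1 bar per gene (3410 and 4743 cells). More than 54% of DETCs held 3 or more Btg1 or Btg2 UMIs, while more than 91% held no Zc3h12a UMI.

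The members were also found as free RNA. In barcodes with 1 to 100 UMIs, which hold no cell, Btg1 reached 1249.9 and 1291 CPM, Btg2 760 and 845, and Zfp36 249 and 271. For comparison, 5 keratin genes stood at 937 and 1329 CPM in those barcodes and at 16.8 and 28.4 in DETCs, which is 1.79% and 2.14% of the free level. In ILC-rule barcodes the same keratins reached 51.6% and 289.8% of it. The part of free RNA in the levels below was not tested.

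DETCs with more Fos had more of every decay factor. Fos encodes a subunit of the AP-1 transcription factor and is induced within minutes of stimulation, tissue digestion included. Fos UMIs were counted among the 2000 drawn UMIs, and the members' full counts were then summed in 5 groups of DETCs with 0 to 2, 3 to 5, 6 to 9, 10 to 15, and 16 or more Fos UMIs. In isotype DETCs, Zfp36 stood at 155, 352, 420, 458 and 525 CPM in these groups, and in anti-Skint1 DETCs at 158, 335, 441, 552 and 671. Each step was upward, and only the groups with 6 to 9 and 10 to 15 Fos UMIs of the isotype library had overlapping intervals.

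The BTG genes followed the same order. Btg1 stood at 1513, 2571, 2971, 3378 and 3957 CPM in the isotype library and at 1394, 2530, 2898, 3333 and 4040 in the anti-Skint1 library. Btg2 stood at 885, 1662, 1976, 2217 and 2665, and at 923, 1689, 2105, 2472 and 3018. For both genes every group lay above the one before it, with no overlap between neighbouring intervals. The widest step in all 3 genes was the first, from 0 to 2 Fos UMIs to 3 to 5.

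The other 3 members had shallower or less regular gradients. Zfp36l1 went from 172 to 311 CPM and from 160 to 318 between the lowest and highest groups, and Zfp36l2 from 361 to 618 and from 294 to 621. In the isotype library Zfp36l2 was level between the groups with 6 to 9 and 10 to 15 (540 and 531). Zc3h12a stood at 27.1 and 22.3 in the lowest groups and at 74.1 and 75.3 in the highest, with overlapping intervals at every step but the first. Depth and mitochondrial share moved little over the groups, with median UMIs per cell between 3993 and 4180 (isotype) and 3459 and 3722 (anti-Skint1) and median mitochondrial UMIs between 5.30% and 5.66%. The T cell receptor gene Trdc was lower in the groups with the most Fos, at 4725 and 4434 CPM in the lowest and highest isotype groups and at 4099 and 3424 in the anti-Skint1 ones, where it was lower at each step.

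**Figure D3:**
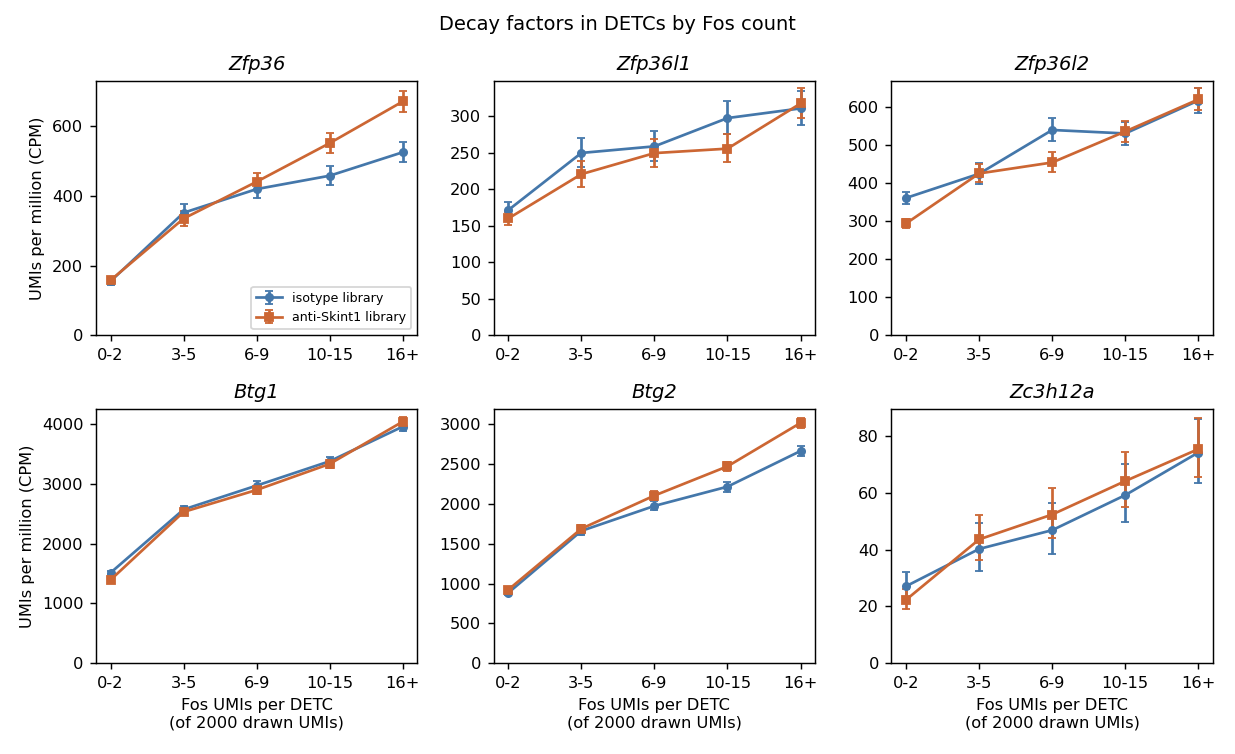
CPM of each member (y axis, from 0) in DETCs grouped by Fos UMIs among 2000 drawn UMIs (x axis), circles for isotype and squares for anti-Skint1, bars for 95% exact Poisson intervals. All 6 genes are higher in the group with 16 or more Fos UMIs than in that with 0 to 2. The intervals of the libraries do not overlap for Zfp36 in the top 2 groups, for Btg2 in the top 3, for Zfp36l2 with 0 to 2 and 6 to 9 Fos UMIs, for Btg1 with 0 to 2 and for Zfp36l1 with 10 to 15.

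Counted as ratios, Fos-high DETCs (10 or more Fos UMIs, 1095 and 1519 cells) exceeded Fos-low DETCs (0 to 2, 1226 and 1817 cells) most for Zfp36. Zfp36 was 3.17-fold higher in the isotype library (log2 ratio 1.66, 95% exact binomial interval 1.55 to 1.78) and 3.87-fold in the anti-Skint1 library (1.95, 1.86 to 2.05). Btg2 was 2.76- and 2.98-fold higher (log2 1.47, 1.42 to 1.52, and 1.57, 1.53 to 1.61), and Btg1 2.43- and 2.65-fold (1.28, 1.24 to 1.32, and 1.40, 1.37 to 1.44). Zfp36l1 was 1.77- and 1.79-fold higher, and Zfp36l2 1.59- and 1.97-fold. With a gene called when it passed 1.5-fold in both libraries, among genes at 50 CPM or more over both groups in each library, 5 of 5 members tested were called higher, against 8.66% of 2772 tested genes, and 0 were called lower, against 1.26%. Zfp36l2 fell short of the fold in the isotype library (log2 0.56) when the drawn UMIs themselves were summed. Zc3h12a fell under the 50 CPM limit and was left out of this count, with 2.46- and 3.12-fold (log2 1.30, 1.01 to 1.60, and 1.64, 1.38 to 1.92). By rank among tested genes, where Fos itself is first by construction, Zfp36 was 58 and 40, Btg2 76 and 70, and Btg1 99 and 92. The median tested gene was lower in Fos-high cells, at -0.154 and -0.149 on the log2 scale.

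Of 5 heat shock genes, which digestion is also known to induce, 3 (Hsph1, Dnajb1 and Hspa8) were called higher in Fos-high DETCs and none lower. Of all tested genes 8.66% were called higher and 1.26% lower. Dnajb1 was 4.41- and 5.06-fold higher. Hspa1a (1.61- and 1.44-fold) and Hspa1b (1.45- and 1.36-fold) were not called. Over the 5 Fos groups from the lowest to the highest, the CPM of Hspa1a in isotype DETCs was 1197, 2209, 1970.4, 1845 and 1999, and in anti-Skint1 DETCs 917, 1369, 1194, 1327 and 1307. Both Hspa1 genes were thus lowest in the group with 0 to 2 Fos UMIs and highest in that with 3 to 5, with no further increase above it. Among DETCs with at most 1 UMI of Hspa1a and Hspa1b together in 2000 (432 Fos-high and 568 Fos-low isotype cells, 681 and 909 anti-Skint1 cells), the log2 ratio of Zfp36 was 2.35 and 2.34, that of Btg2 1.85 and 1.80, and that of Btg1 1.73 and 1.63. DETCs with 1 such UMI stayed in, and Dnajb1, Hsph1 and Hspa8 were not used to leave cells out. The part of the heat shock genes in the Fos relation was not tested further.

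Within the families, the Fos gradient went with a change of make-up. Zfp36 supplied 22.6% (exact binomial interval 21.2% to 24.0%) of Zfp36 family UMIs in isotype DETCs with 0 to 2 Fos UMIs and 36.1% (34.5% to 37.8%) in those with 16 or more, and 25.8% (24.5% to 27.1%) and 41.7% (40.3% to 43.1%) in the anti-Skint1 library. Zfp36l2 supplied 52.5% and 42.5% at the same ends in the isotype library and 48.1% and 38.6% in the other. The BTG pair moved less, with Btg2 at 36.9% and 40.2%, and at 39.9% and 42.8%. Zfp36l2 was thus the leading family member in Fos-low DETCs of both libraries, and Zfp36 led in the anti-Skint1 cells with the most Fos.

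Over single DETCs the BTG genes, which have the most UMIs, correlated most with Fos. Correlations are given as a description over 3410 and 4743 cells, all of 1 library each and of equal drawn depth. Pearson's r with Fos was 0.510 and 0.539 for Btg2, 0.485 and 0.499 for Btg1, 0.306 and 0.366 for Zfp36, 0.156 and 0.154 for Zfp36l1, 0.130 and 0.197 for Zfp36l2, and 0.116 and 0.122 for Zc3h12a. Spearman's rho put the members in the same order within each library. Between members, Btg1 and Btg2 had the highest r (0.379 and 0.400), followed by Zfp36 and Btg2 (0.262 and 0.308), and Zfp36l1 and Zc3h12a the lowest (0.00306 and 0.00719). Against the full UMI count of the cell, r lay between -0.136 and 0.0223 for the 6 members.

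Among 2852 genes ranked by the lower of their r in both libraries, Fos was the gene most like each of the 6 members. After it, Rgs2, a regulator of G protein signalling, came next for Btg1 (0.445 and 0.416), Btg2 (0.432 and 0.423), Zfp36l2 (0.129 and 0.169) and Zc3h12a (0.119 and 0.111). Zfp36 was most like Nfkbia, the NF-kB inhibitor (0.296 and 0.338), then Junb, Btg2 and Dusp1, an early response phosphatase. Zfp36l1 was followed by Dusp1, Rgs2, Gadd45b and Btg1. Ier5l stood in the list of Btg1, Btg2, Zfp36l2 and Zc3h12a, and the histone gene Hist1h2bc in that of Btg1 and Zc3h12a. H3f3b completed the list of Zc3h12a, and Junb, Ier5l and Dusp1 that of Btg2. The median r over all genes was between -0.0184 and -0.000765. Counting error lowers r for genes with few UMIs, so this ranking favours abundant genes, and Fos had a mean of 7.71 and 7.68 drawn UMIs.

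The machinery that these factors recruit was tested in part along the Fos gradient, since most of its genes lay under 50 CPM. Of 18 deadenylase genes (CCR4-NOT subunits, TOB and BTG relatives, PAN2, PAN3 and PARN), 7 were tested, 2 were called higher and none lower, beside the 8.66% and 1.26% of all tested genes. The pair called was Tob1 (2.58- and 2.42-fold) and Tob2 (2.04- and 2.26-fold), whose products are BTG family adaptors of the same deadenylase. Pan3, a subunit of the PAN2-PAN3 deadenylase, had log2 ratios of -0.37 and -0.33. Of 9 decapping and 5' decay genes 2 were tested and none called, with the RNA helicase gene Ddx6 at -0.21 and -0.28 and the exonuclease gene Xrn1 at -0.61 and -0.30. None of 10 exosome genes reached the 50 CPM limit.

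Of 16 other regulators of message stability, 11 were tested and 1 was called higher, a share near the 8.66% of all tested genes. It was Malt1, 1.87- and 2.16-fold higher. Malt1 encodes the protease that cleaves Regnase-1 on antigen receptor signals. The RNA-binding protein genes Elavl1 (0.14 and -0.00043) and Hnrnpd (-0.30 and -0.39) were near or below 0. Among 18 messages known as targets of these factors, 7 of 7 tested were called higher, of which Dusp1 was 5.28- and 5.89-fold higher, Ier3 2.62- and 2.66-fold, Cxcl2 2.39- and 5.73-fold, and Tnf 1.85- and 2.77-fold. The median log2 ratio of these 7 was 1.30 and 1.46, next to 1.28 and 1.40 for the 5 members. The motif TATTTAT was present in 13 of 17 target genes with a 3' UTR in the annotation, and in 6 of the 7 called here, Nfkbid being without it. It was also present in 9 of 16 regulators, 8 of 15 immediate early genes, 4 of 9 decapping genes, 7 of 18 deadenylase genes, 1 of 5 heat shock genes and 0 of 10 exosome genes, against 26.1% of 20699 coding genes of any 3' UTR length. The target list was made of known targets, so its motif share is not independent of that choice. No list was matched for 3' UTR length. Of 15 further immediate early genes, 12 of 12 tested were called higher, with Egr1 at 6.77- and 8.30-fold and Jund at 2.23- and 2.28-fold.

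Between treatments, DETCs differed little in these genes. The log2 ratio of anti-Skint1 to isotype was 0.12 (0.067 to 0.17) for Zfp36 and 0.079 (0.055 to 0.10) for Btg2. It was -0.13 (-0.19 to -0.063) for Zfp36l1, -0.14 (-0.18 to -0.091) for Zfp36l2, -0.064 (-0.083 to -0.044) for Btg1 and -0.031 (-0.18 to 0.12) for Zc3h12a. None of the 5 members tested passed a log2 ratio of 0.322 in either direction, the limit used for this comparison, where 0.21% of 2852 tested genes were higher and 1.51% lower by that much. The median tested gene was at -0.028, and Fos at -0.026. With 1 library per treatment, differences of this size cannot be told apart from differences between libraries. Of the deadenylases Tob2 was called lower (1.28-fold) and of the targets Rel (1.30-fold).

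The distance between the libraries varied over the Fos groups, and not in the same way for each member. In DETCs with 16 or more Fos UMIs the log2 ratio of anti-Skint1 to isotype was 0.35 (0.25 to 0.46) for Zfp36 and 0.18 (0.13 to 0.23) for Btg2, and with 10 to 15 it was 0.27 (0.15 to 0.38) and 0.16 (0.10 to 0.21). With 0 to 2 Fos UMIs it was 0.026 (-0.10 to 0.16) for Zfp36 and 0.062 (0.0071 to 0.12) for Btg2. Zfp36l2 was at -0.30 (-0.39 to -0.21) in the lowest group, at -0.25 (-0.36 to -0.13) with 6 to 9 Fos UMIs, and at 0.0028, 0.014 and 0.0069 in the groups with 3 to 5, 10 to 15 and 16 or more. Btg1 was at -0.12 (-0.16 to -0.075) in the lowest group and 0.030 (-0.0097 to 0.070) in the highest. Egr1, called higher in anti-Skint1 DETCs as a whole (1.31-fold), was 1 of 12 immediate early genes tested, of which Atf3 (1.47-fold) and Nr4a3 (1.27-fold) were called lower. Of the 5 heat shock genes 3 were called lower in anti-Skint1 DETCs, beside 1.51% of all tested genes, Hspa1a by 1.48-fold, Hspa1b by 1.46-fold and Hsph1 by 1.77-fold, and the list's median log2 ratio was -0.55. Among DETCs with at most 1 UMI of Hspa1a and Hspa1b together in 2000 the ratio over all Fos groups was 0.21 for Zfp36 and 0.16 for Btg2. The part of these genes in the differences was not tested.

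Compared with alpha-beta T cells of the same sort, DETCs had more Btg2 and less Zfp36l1 in both libraries. Btg2 was at 1683 and 1777 CPM in DETCs against 824 (763 to 890) and 949 (884 to 1018), which is 2.04- and 1.87-fold higher (log2 1.03, 0.92 to 1.14, and 0.90, 0.80 to 1.01). Zfp36l1 was at 242 and 222 against 422 (378 to 470) and 373 (333 to 417), 1.74- and 1.68-fold lower (log2 -0.80, -0.96 to -0.63, and -0.75, -0.92 to -0.58), a call lost with a mitochondrial limit of 5% (-0.49 and -1.01). These 2 were the members called, 1 of 5 higher and 1 of 5 lower, against 16.7% and 7.05% of 2595 tested genes, so the counts by themselves are near the background, and 11.9% and 12.3% of tested genes had a higher ratio than Btg2. Of the 5 heat shock genes, 4 were called higher in DETCs than in alpha-beta T cells, and their part in these differences was not tested. Against the 142 and 147 alpha-beta T cells without a UMI of Trdc, Il17a or Cd163l1, the log2 ratio was 1.23 and 1.38 for Btg2 and -0.99 and -0.83 for Zfp36l1. The median tested gene was at 0.118 and 0.134. Zfp36 (0.38 and 0.34), Btg1 (0.10 and 0.051, or -0.016 and -0.083 after centring on that median) and Zfp36l2 (0.21 and -0.046) lay within 1.5-fold, and Zc3h12a had intervals that crossed 0 in both libraries.

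The classes also differed in Fos, at 3766 and 3699 CPM in DETCs against 1327 and 2067 in alpha-beta T cells. When only cells with 0 or 1 Fos UMI among 1000 drawn were compared (1473 and 142 isotype cells, 2124 and 135 anti-Skint1 cells), the log2 ratio was 0.67 and 0.73 for Btg2, below its interval over all cells but past 1.5-fold in both libraries, and -1.08 and -1.14 for Zfp36l1. In those cells Btg1 was lower in DETCs (-0.43 and -0.49) and Zfp36 was at -0.074 and -0.20, so their sign turned. Fos was still not equal there, at 694 and 661 CPM in DETCs against 499 and 534 in alpha-beta T cells. Within alpha-beta T cells the Fos relation held for some members: Btg2 had log2 ratios of 1.63 (1.31 to 1.94) and 1.53 (1.29 to 1.76) for 5 or more over 0 or 1 Fos UMIs, and Zfp36 1.33 (0.68 to 1.93) and 1.26 (0.82 to 1.69), on 14 and 36 Fos-high cells. Btg1 was at 0.48 (0.25 to 0.71) and 0.63 (0.48 to 0.78), below the 1.10 and 1.24 of DETCs grouped the same way. Zfp36l2 was at 0.87 (0.33 to 1.37) and 0.68 (0.30 to 1.05), where DETCs had 0.67 and 0.86. Zfp36l1 was at -1.30 (-2.45 to -0.35) and -0.11 (-0.59 to 0.34), where DETCs had 0.74 and 0.83.

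The difference in Zfp36l1 showed in the family make-up too. Zfp36l1 supplied 23.1% and 21.9% of Zfp36 family UMIs in DETCs, 38.8% (35.6% to 42.1%) and 33.8% (30.8% to 37.0%) in alpha-beta T cells, and 41.5% (36.1% to 47.0%) and 40.7% (36.5% to 45%) in ILC-rule barcodes. Btg2 supplied 39.2% and 41.6% of BTG UMIs in DETCs, 25.3% and 28.3% in alpha-beta T cells, and 19.0% and 27.2% in ILC-rule barcodes. Among the targets, DETCs held less Tnf (1.78- and 1.95-fold), Csf2 (5.54- and 8.99-fold) and Icos (28.9- and 26.9-fold) than alpha-beta T cells and more Ier3 (2.59- and 1.59-fold), with 5 of 11 tested called lower and 1 higher, beside 7.05% and 16.7% of all tested genes, while none of 7 deadenylases, 2 decapping genes and 10 other regulators tested was called.

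Against ILC-rule barcodes, DETCs had more Btg2, Zfp36 and Btg1. Btg2 was at 392 (332 to 460) and 506 (454 to 564) CPM in those barcodes, 4.30- and 3.51-fold below DETCs (log2 2.10, 1.87 to 2.34, and 1.81, 1.66 to 1.97). Btg1 was at 1674 and 1354 CPM there (log2 0.64, 0.53 to 0.75, and 0.88, 0.79 to 0.98). Zfp36 was at 112.3 (81.3 to 151) and 180 (149 to 216) CPM there (log2 1.58, 1.15 to 2.05, and 1.02, 0.76 to 1.29), but its sign turned in 1 library each with a mitochondrial limit of 5% (-0.58, anti-Skint1) and with no upper limit on genes (-0.27, isotype). DETCs also held more Fos than these barcodes, 5.19- and 3.29-fold, and 4 of 4 heat shock genes tested were called higher. Among cells with 0 or 1 Fos UMI in 1000 (1473 and 69 isotype cells, 2124 and 113 anti-Skint1 cells), Btg1 was at 0.26 and 0.24 and no longer passed 1.5-fold, while Btg2 was at 1.57 and 1.47 and Zfp36 at 0.84 and 1.12. Fos was not equal in these cells, at 694 and 661 CPM in DETCs against 343 and 430 in ILC-rule barcodes. Of 5 members tested 3 were called higher over all cells, against 20.2% of 2538 tested genes, and 0 lower, against 9.46%. Zfp36l1 was lower in DETCs at -0.56 in both libraries, just inside the 1.5-fold limit (0.585 on the log2 scale), and it passed that limit with a mitochondrial limit of 5% (-0.97 and -1.29) or after centring on the median tested gene (-0.65 and -0.69). Zfp36l2 was at 0.26 and 0.54.

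The Zfp36 UMIs of the ILC-rule barcodes were held by few of them. The 10 barcodes with the most Zfp36 held 86.0% of its UMIs in the isotype library (43 UMIs in all) and 58.0% in the anti-Skint1 library (119 UMIs), out of 82 and 139 barcodes. In the 49 and 70 ILC-rule barcodes without a UMI of Krt5, Krt10, Krt14, Cd207, H2-Aa or Cd74, the log2 ratio of DETCs was 2.35 and 2.41 for Zfp36 and 2.14 and 2.33 for Btg2, while Zfp36l1 was at -0.43 and 0.061. So the distance of DETCs from these barcodes was larger for Zfp36 when barcodes with keratinocyte or Langerhans markers were left out.

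The 5 members tested were all above 0 in cycling DETCs of both libraries, and none passed 1.5-fold. Cells with 2 or more UMIs of 10 cell cycle genes among 2000 drawn (278 and 276) had log2 ratios over DETCs with none (2582 and 3690) of 0.51 (0.37 to 0.64) and 0.26 (0.12 to 0.40) for Zfp36, 0.23 (0.17 to 0.30) and 0.29 (0.22 to 0.35) for Btg2, and 0.18 in both libraries for Btg1. The median of the 5 was 0.23 and 0.25, beside -0.024 and -0.015 over all 2766 tested genes, of which 1.01% were called higher and 0% lower. Fos was also higher in cycling cells, at 0.27 and 0.29. Btg1 and Btg2 are named for their effect against proliferation, and neither was lower in cycling DETCs here. With no upper limit on genes, however, Btg1 was at -0.28 and -0.29 and Btg2 at -0.14 and -0.15. Over all alternatives the lowest values were -0.34 and -0.29 for Zfp36l1, -0.043 and -0.046 for Zfp36, and -0.086 and 0.0024 for Zfp36l2.

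**Figure D4:**
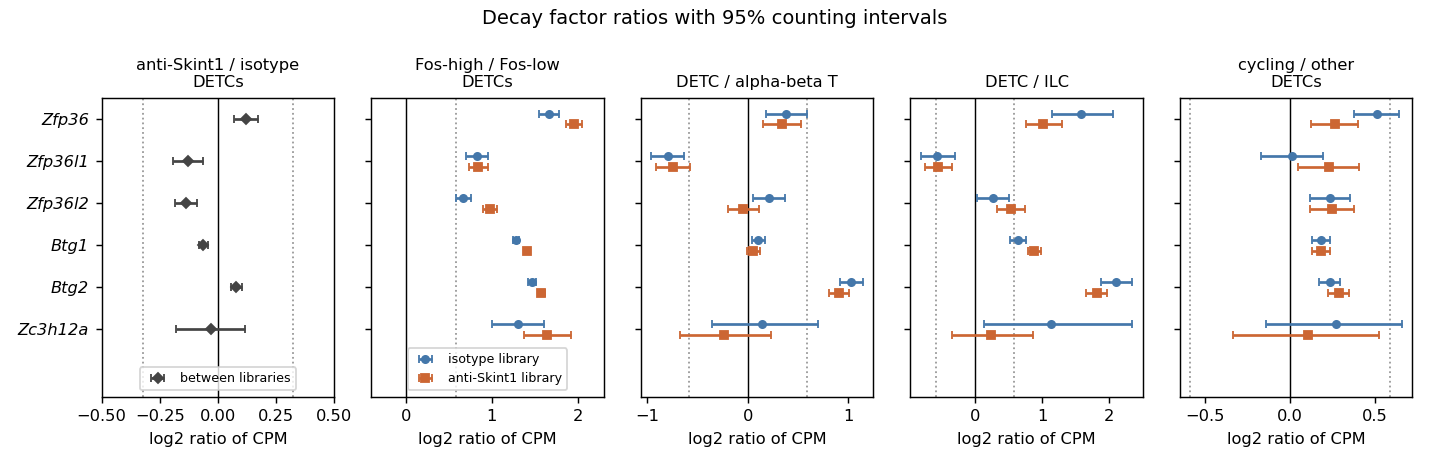
Log2 ratios of CPM (x axis) for the 6 members in 5 comparisons, with 95% exact binomial intervals (counting error only), circles for the isotype library, squares for the anti-Skint1 library and diamonds for the comparison between libraries. Dotted lines mark the folds used to call a gene (0.322 between treatments, 0.585 elsewhere, log2). All members lie right of 0 for Fos-high over Fos-low cells, and Zfp36l1 alone lies left of 0 in both class comparisons in both libraries.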

How the data were processed

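Single-cell libraries (10x 3' v3) were made from sorted ear epidermal cells, 1 per treatment. Per the file headers and the submitters' processing notes, the deposited matrices hold raw UMI counts per gene and barcode made by the authors with Cell Ranger 3.0.2 on mm10 (GRCm38), unfiltered, with 6794880 barcodes each and 27272211 and 32450957 UMIs in the isotype and anti-Skint1 libraries. Here, barcodes were limited to 500 to 2500 genes and at most 12% mitochondrial UMIs, and classes were set by the marker rules given above. UMIs were summed per class and library and divided by the class total (CPM), with exact Poisson, exact conditional binomial and Clopper-Pearson intervals at 95%, which cover counting error only. Genes at 50 CPM or more in each library over both groups together (for classes, the mean of both CPM values) were tested against a fold: 1.25 between libraries, and 1.5 in both libraries between groups of cells of 1 library. With 1 library per treatment no count model could be fitted, so no p-value is given. Cells were thinned to 2000 UMIs (1000 where classes were compared) before Fos groups, shares, Fano factors and correlations were computed. Scrublet (scanpy 1.11.5) at its own threshold marked 5 of 4709 and 7 of 6425 barcodes, too few to have worked, so the highest scores at 0.8% per 1000 barcodes (177 and 330) were marked, kept, and left out in an alternative. Named genes were the 6 members, Fos, the 5 genes most like each member, and listed genes past the fold or among the 3 highest of a list. Python 3.11.15, numpy 2.4.6, scipy 1.17.1, pandas 2.3.3 and matplotlib 3.10.9 were used. The ratio and interval code was tested on simulated Poisson counts without variation between cells, and the thinning was checked for its totals. The other steps were not tested on simulated data. The members, lists and comparisons were chosen with earlier results of these data known.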

Additional observations from a re-analysis of the deposited data

How the results depend on the processing

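No paired analysis was possible because each treatment has 1 library, and for the same reason no library could be left out of a comparison. Alternatives changed the mitochondrial limit, the upper gene limit, doublets, the DETC rule, centring, totals, weighting of cells, the CPM minimum and the thinning. Others, on Fos, heat shock, markers and overlapping rules, were chosen after seeing the data. Of 144 values for Fos-high against Fos-low DETCs, 144 kept their sign and 51 moved beyond their counting interval, with Zfp36 between 1.40 and 2.35 (isotype) and between 1.74 and 2.34 (anti-Skint1) on the log2 scale. Of 60 treatment values 57 kept their sign, of 132 against alpha-beta T cells 120, of 132 against ILC-rule barcodes 128, and of 120 in cycling cells 105. The ratio of Zfp36 to ILC-rule barcodes reversed to -0.58 (anti-Skint1) at 5% mitochondrial UMIs and to -0.27 (isotype) with no upper limit on genes. Members called lower than in alpha-beta T cells were 0 in place of 1 at 5% mitochondrial UMIs. Members called lower than in ILC-rule barcodes were 1 (Zfp36l1) in place of 0 at 5% mitochondrial UMIs, centred on the median tested gene, with totals without mitochondrial and ribosomal protein UMIs, in Fos-low cells only, and without barcodes that meet both rules. Btg1 was no longer called higher than in ILC-rule barcodes in Fos-low cells (0.26 and 0.24), after centring, and with totals without mitochondrial and ribosomal protein UMIs, and Zfp36l2 was called in place of Zfp36 at 5% mitochondrial UMIs and with no upper limit on genes. The causes were not tested. Centring on the median gene (-0.154 and -0.149) put Zfp36 at 1.82 and 2.10 in Fos-high over Fos-low DETCs. Depth limits Zc3h12a, with 8 and 25 UMIs in ILC-rule barcodes, and every ratio that rests on 14 Fos-high alpha-beta T cells.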
